A study of Homo sapiens with 6 samples.

Results

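The open chromatin described here lies on human chromosomes 4, 13 and 18, the autosomes with the fewest protein-coding genes for their length. Every peak listed on these chromosomes in any of 6 libraries was taken, and peaks that overlapped by at least 1 bp were merged. This gave 17851 regions of 167726 on the autosomes and X, of which 9004 lay on chromosome 4, 4586 on chromosome 13 and 4261 on chromosome 18. The cells were 22Rv1, an established human prostate cancer line, and accessibility was profiled by ATAC-seq, in which a transposase cuts and tags open DNA. All 6 libraries carry the label FOXA1_dTAG, and they fall into 3 groups of 2: 0 h, 1 h and 24 h. The dTAG is fused to a protein so that a small molecule can recruit the cell's degradation machinery to it. No untagged group was analysed here. The labels give neither the molecule nor its dose, do not say whether the tagged line is a single clone, and do not state if the replicates are separate cultures; p-values and SDs then measure only the spread between these libraries. FOXA1 protein was not measured in these files, and no gene-level marker of prostate cells could be read from lists of positions. The series asks how pioneer factors bear on chromatin entry of cohesin and on genome folding.

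Gene-poor chromosomes hold long stretches with few genes, and many open regions there are distal elements such as enhancers and CTCF sites rather than promoters. FOXA1 is a forkhead transcription factor of luminal prostate cells. It is called a pioneer factor because it can bind its sites in closed chromatin, and many of its sites are enhancers far from promoters, where the androgen receptor also binds. The comparison over time thus asks which of these open regions were still listed after the tag was engaged, and where along each chromosome they lay.

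The label was checked against a count of protein-coding genes on GRCh38.p14. Chromosome 13 had 2.96 genes per Mb, chromosome 18 had 3.36 and chromosome 4 had 4.05, which are the lowest, the second lowest and the third lowest of 23 chromosomes. Poverty in genes was not poverty in open regions for all 3. Chromosome 13 held 39.8 merged regions per Mb, the second lowest of the 23, and chromosome 4 held 47.1, the fifth lowest. Chromosome 18 held 54.6, which placed it 14th from the lowest.

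Lists ranged from 101755 peaks (24 h replicate 1) to 125396 (0 h replicate 2). Relative sequencing depth, recovered from the deposited values, ranged from 7.04 to 7.33 tags per kb for the 24 h libraries and from 8.14 to 10.4 for the other 4. Both 24 h libraries were thus the shallowest on this scale, and the part of depth in the 24 h losses was not tested. The scale divides a recovered background pileup by the width of the list's shortest peak, and the order rests on that step. Undivided, the pileup was lowest in 0 h replicate 2 (0.915), beside 1.08 and 0.958 at 24 h. On the divided scale the order at 1 h was mixed. Of the 1 h libraries, replicate 2, at 8.62, was deeper than 0 h replicate 2, at 8.24. The other, at 8.14, lay below both 0 h libraries, and 0 h replicate 1 was the deepest at 10.4. From 0 h replicate 2 to 1 h replicate 2, 4.72% of strong peaks on chromosomes 4, 13 and 18 had no counterpart, beside 2.90% elsewhere. The part of depth in the 1 h losses was not tested. Strong peaks are those with a −log10 q that reached 10. The comparisons with the other chromosomes are made within the same 6 libraries.

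Of these peaks, 12182 and 12947 at 0 h lay on chromosomes 4, 13 and 18. There were 11204 and 11989 such peaks at 1 h, and 24 h had 10174 and 11869. As a share of each list they made up 10.3% in both libraries at 0 h, between 10.1% and 10.2% at 1 h, and 10.00% and 10.4% in the pair from 24 h. The 2 libraries of 24 h lay on either side of the 0 h libraries. The mean share was 10.3% ± 0.0168 (SD, n = 2) at 0 h and 10.1% ± 0.0287 at 1 h, a difference of −0.168 percentage points with no overlap between the groups (exact two-sided permutation p = 0.333, adjusted 0.75 over 9 tests of library values). The p of 0.333 is the smallest that 2 against 2 libraries can give, so this test cannot pass 0.05 here. At 24 h the mean was 10.2% ± 0.269, which differed from 0 h by −0.125 points and from 1 h by 0.0436 (exact permutation p = 1 for both). The sign of both values turned with 1 library: without 24 h replicate 1 the difference from 0 h was 0.0654, and without 24 h replicate 2 the difference from 1 h was −0.146.

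Among strong peaks the share on the 3 chromosomes was 9.82% and 9.60% at 0 h. It was 9.36% and 9.49% at 1 h, while 24 h gave 9.48% and 9.34%. Here both later times lay below both 0 h libraries. The means were 9.71% ± 0.157, 9.42% ± 0.0940 and 9.41% ± 0.102 (SD, n = 2), with differences from 0 h of −0.285 points at 1 h and −0.298 at 24 h (exact two-sided permutation p = 0.333 for each). Between 1 h and 24 h the share differed by −0.0126 points (exact permutation p = 0.667), a value that turned positive without 24 h replicate 2 (0.0592) or without 1 h replicate 2 (0.0538). Limiting the share to strong peaks was decided after the data were seen.

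**Figure D1:**
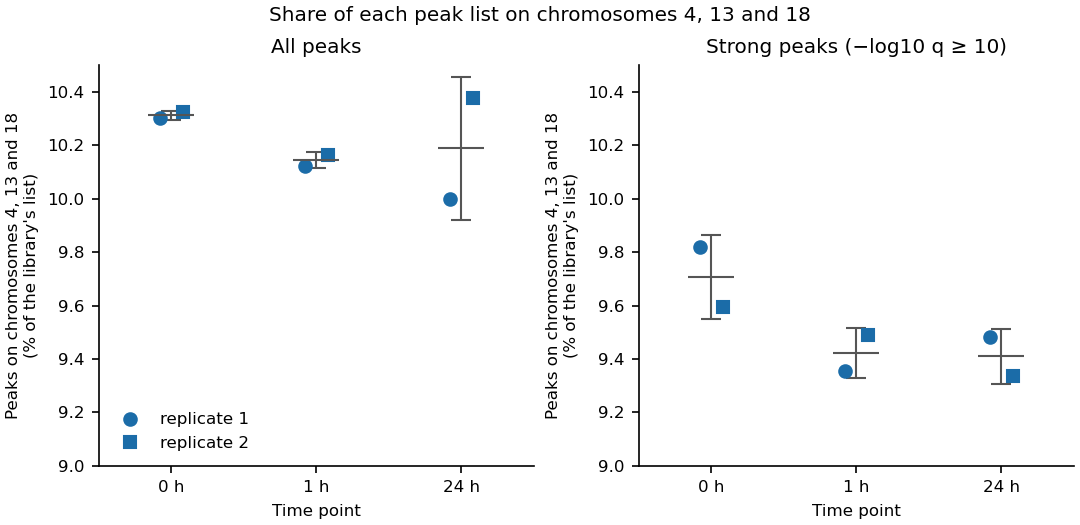
Share of each library's peaks that lie on chromosomes 4, 13 and 18, in percent of the list, for all peaks (left) and for peaks with −log10 q of at least 10 (right). Points are libraries, bars are the mean ± SD of 2 libraries, and the vertical axis starts at 9%. The 24 h libraries lie on both sides of 0 h for all peaks and below both 0 h libraries for strong peaks.

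Peaks on the 3 chromosomes were narrower than the others in all 6 lists, and their median fold ranked lower in 5 of them. The fold of a peak, the authors' ratio of its summit pileup to the local background, was ranked from 0 to 100 within its own list. The median percentile on chromosomes 4, 13 and 18 minus that of the other peaks was −0.318 and −0.973 at 0 h. It was −1.44 and −1.05 at 1 h, while 24 h gave 0 and −2.13. Many weak peaks share a fold, so these medians move in steps. At the top the order was mixed: 10.64% of the peaks on the 3 chromosomes were in the top 10% of the list in 0 h replicate 1, beside 9.93% of the others. The exact two-sided permutation p was 0.333 for 1 h against 0 h and 1 for 24 h against either other time. Median width on the 3 chromosomes over that of the rest was 0.928 and 0.923 at 0 h. It was 0.933 and 0.922 at 1 h, while 24 h gave 0.916 and 0.915. Both 24 h ratios lay below all 4 earlier ones, and the mean of 24 h minus that of 0 h was −0.01004 (exact two-sided permutation p = 0.333, adjusted 0.75). In lists cut to one length it was −0.00119 (exact permutation p = 1).

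Lost regions had a peak in both libraries of the earlier time and in neither of the later. Gained regions had the reverse, and kept regions had a peak in all 4 libraries. Of the 10166 regions on the 3 chromosomes that both 0 h libraries held, 974 were lost at 1 h (9.58%) and 8179 were kept (80.5%). Over all autosomes and X, 7.48% of regions were lost at 1 h and 83.8% were kept. At 24 h, 1632 regions were lost (16.1%) and 7242 were kept (71.2%), beside a genome-wide 13.1% lost and 75.7% kept. Gained regions numbered 408 at 1 h (4.33% of those both 1 h libraries held, genome-wide 3.93%) and 707 at 24 h (8.14%, genome-wide 6.54%). From 1 h to 24 h there were 658 losses (6.98%, genome-wide 6.42%) and 418 gains (4.81%, genome-wide 3.85%). Losses outnumbered gains in each of these comparisons, but for 24 h against 1 h this order turned in lists cut to one length (462 lost, 532 gained) and without 24 h replicate 1 (1006 lost, 1678 gained). For 24 h against 0 h, lists of one length gave 1175 lost and 915 gained. Against 0 h the order held whichever library was left out, but the counts could come close. Without 24 h replicate 1, 2024 were lost and 2021 gained at 24 h. Without 1 h replicate 1, 1412 were lost and 1373 gained at 1 h.

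The 3 chromosomes did not share these values evenly. Chromosome 4 lost 506 regions at 1 h (9.77%) and 872 at 24 h (16.8%), which was the highest 24 h share of the 23 chromosomes. Chromosome 13 lost 261 at 1 h (10.0%, the highest of the 23) and 432 at 24 h (16.6%, the second highest). Chromosome 18 lost 207 at 1 h (8.71%) and 328 at 24 h (13.8%), the sixth and the 11th highest. Gains at 24 h numbered 396 on chromosome 4 (8.92%), 182 on chromosome 13 (8.38%) and 129 on chromosome 18 (6.21%). Chromosome 4 thus led the 23 in its share of gains as well, while chromosome 18 was 12th. All other autosomes and X together lost 7.24% at 1 h and 12.7% at 24 h and gained 3.88% and 6.36%.

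Among strong regions chromosome 13 had the highest share of losses, and chromosome 18 again the lowest of the 3. A strong region reached a −log10 q of 10 in both libraries on the side that held it. To be called lost or gained it needed to be free of any peak, weak ones included, in both libraries on the other side. At 1 h, 133 strong regions were lost (2.59%, genome-wide 1.51%), of which 71 lay on chromosome 4, 39 on 13 and 23 on 18. At 24 h, 307 were lost (5.97%, genome-wide 4.02%): 161 on chromosome 4 (6.14%), 93 on 13 (6.94%) and 53 on 18 (4.48%). Chromosome 5, outside the 3, lost 5.22% of its strong regions at 24 h, above chromosome 18. Strong gains were few, with 4 at 1 h (0.0862%, genome-wide 0.0338%) and 48 at 24 h (1.14%, genome-wide 0.748%). Of these 48, 32 lay on chromosome 4, 13 on chromosome 13 and 3 on chromosome 18. Chromosome 18 had the third lowest share of strong gains of the 23 (0.309%). From 1 h to 24 h, 4 strong regions were lost (0.0862%, genome-wide 0.0896%) and 13 gained (0.309%, genome-wide 0.151%).

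For the 3 chromosomes together, the share of losses was above that of the other chromosomes whichever library was left out. For strong losses at 24 h the share on the 3 chromosomes ranged from 6.86% to 9.29% over the 4 omissions, beside 4.57% to 6.00% elsewhere in the same fits. For all losses at 24 h it ranged from 19.9% to 24.9%, beside 16.3% to 20.7%. A difference between chromosomes was also present between replicates of one time, where no treatment differs. Between the 0 h libraries, 0.638% and 0.799% of the strong peaks on the 3 chromosomes had no counterpart in the other replicate, beside 0.386% and 0.474% elsewhere. Between 1 h replicates these values were 0.273% and 0.686%, beside 0.163% and 0.502%, and between 24 h replicates 0.423% and 1.02%, beside 0.332% and 0.712%. From a 0 h to a 24 h library, 8.30% to 12.9% of strong peaks on the 3 chromosomes had no counterpart over the 4 pairs, beside 5.86% to 8.84% elsewhere. For strong peaks of 0 h the mismatch with 24 h thus exceeded that between replicates. Over all peaks of the 3 chromosomes the gap was smaller, with 26.7% to 34.0% of 0 h peaks unmatched at 24 h and 11.6% to 24.3% unmatched between replicates. From 1 h to 24 h, 1.03% to 2.60% of strong peaks were unmatched. Strong mismatch on the 3 chromosomes can also be read as a ratio to that elsewhere. This ratio was no higher from 0 h to 24 h than between the 0 h replicates. It was higher from 0 h to 24 h than in 1 direction between the 24 h replicates (0.423% beside 0.332%). The same held for 1 direction between the 1 h replicates (0.686% beside 0.502%). Ratios between replicates thus lay on both sides of those from 0 h to 24 h. The difference between chromosomes was not itself tested, since the 2 libraries of a time give 1 count.

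Arms were divided at the longest stretch without a peak in any list, which was chr4:49659840-52663930 and chr18:15408012-18511041 on hg19. The first region on chromosome 13 began at 19069296, so that chromosome had no region on a short arm. On both chromosomes with 2 arms, the long arm lost the larger share. On chromosome 4, 200 of 1460 regions were lost at 24 h on the short arm (13.7%) and 672 of 3720 on the long arm (18.1%), and strong losses were 33 of 780 (4.23%) and 128 of 1843 (6.95%). On chromosome 18, 60 of 512 were lost on the short arm (11.7%) and 268 of 1864 on the long arm (14.4%), with strong losses of 7 of 271 (2.58%) and 46 of 911 (5.05%). The long arm of chromosome 13 lost 432 of 2610 (16.6%) and 93 of 1340 strong regions (6.94%). The long arm of chromosome 4 and that of chromosome 13 thus had nearly the same strong share, and the long arm of chromosome 18 a lower one. The order was the same at 1 h, with 8.22% against 10.4% on chromosome 4 and 6.45% against 9.33% on chromosome 18. Gains differed between arms in the same direction: at 24 h they made up 7.49% and 9.50% of held regions on chromosome 4 and 3.69% and 6.93% on chromosome 18. Of the 32 strong gains on chromosome 4, 3 lay on the short arm and 29 on the long arm, and the 3 on chromosome 18 all lay on the long arm.

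One window beside the peak-free stretch of chromosome 4 stood apart. The 1 Mb from 49 to 50 Mb held 154 regions, 102 of them in both 0 h libraries, the most of any window on the 3 chromosomes. Its median fold percentile was only between 3.196 and 6.29 in the 6 libraries, yet its median −log10 q was between 11.1 and 14.3. It lost 11 of the 102 at 1 h (10.8%) and 6 at 24 h (5.88%), and gained 0 at 24 h. Without it, the short arm of chromosome 4 lost 14.3%, the chromosome 17.1% and the 3 chromosomes together 16.2%, with 6.04% of strong regions lost.

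Along the long arms the losses were uneven. Strong losses were counted in 10 Mb steps with at least 50 strong 0 h regions, of which the 3 chromosomes have 37 and the autosomes and X 297. The steps were drawn after the data were seen. On chromosome 13, the step from 60 to 70 Mb lost 19 of 86 strong regions at 24 h (22.1%) and the step from 80 to 90 Mb lost 16 of 75 (21.3%), the second and the third highest of the 297. Between them, the step from 70 to 80 Mb lost 12 of 113 (10.6%). On either side the shares were lower, with 5 of 128 from 50 to 60 Mb (3.91%) and 14 of 156 from 90 to 100 Mb (8.97%). Values of single library pairs are a description here, since a strong region lost at 24 h is unmatched in every such pair by construction. From 60 to 70 Mb, between 26.3% and 36.3% of a 0 h library's strong peaks had no counterpart in a 24 h library, and between 13.7% and 14.7% in a 1 h library, while the 0 h replicates missed 0.877% and 0.980% of each other's. From 80 to 90 Mb these ranges were 23.5% to 31.3% at 24 h, 15.3% to 17.7% at 1 h, and 0 to 1.18% between 0 h replicates.

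On chromosome 4 the highest step ran from 60 to 70 Mb, where 24 h had lost 13 of 76 strong regions (17.1%) and 1 h had lost 8. The step from 130 to 140 Mb followed with 10 of 64 (15.6%) and that from 160 to 170 Mb with 13 of 109 (11.9%). The same chromosome also held the lowest of the 37 steps, from 0 to 10 Mb, where 2 of 263 strong regions were lost (0.760%). At its other end, past 190 Mb, 0 of 39 strong regions were lost. Chromosome 18 was flatter, from 3 of 149 between 10 and 20 Mb (2.01%) to 8 of 113 between 60 and 70 Mb (7.08%). Counting all regions, that last step lost 62 of 242 (25.6%). Of the 20 steps with the highest strong share genome-wide, 6 lay on chromosomes 4 and 13. The median step of the 3 chromosomes lost 5.43% and that of the other chromosomes 3.49%, and the highest step elsewhere, on chromosome 5, lost 22.7%.

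**Figure D2:**
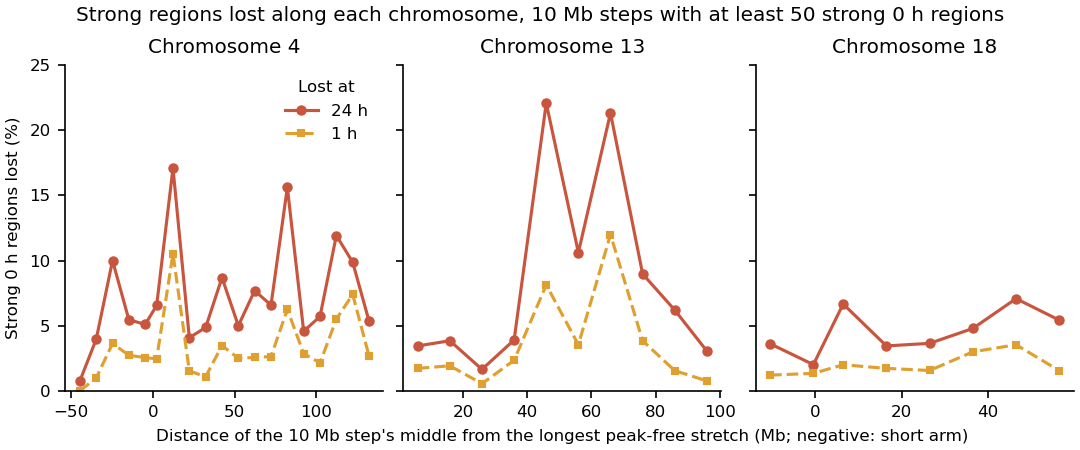
Percent of strong 0 h regions lost at 24 h (circles) and at 1 h (squares) in 10 Mb steps along chromosomes 4, 13 and 18, against the distance in Mb of the step's middle from the longest peak-free stretch (negative on the short arm). Only steps with at least 50 strong 0 h regions are drawn; chromosome 13 reaches 22.1% and 21.3% in 2 steps, and chromosome 18 stays at or below 7.08%.

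Gains did not follow the same steps in all cases. From 40 to 50 Mb on chromosome 13, 48 regions were lost and 45 gained at 24 h, and 3 of 182 strong regions were lost (1.65%). From 30 to 40 Mb on chromosome 4, 44 were lost and 38 gained. From 80 to 90 Mb on chromosome 13, a step with many strong losses, 26 regions were gained beside 53 lost, and 4 of the 13 strong gains of the chromosome lay there. From 130 to 140 Mb on chromosome 4, 6 of its 32 strong gains lay beside 10 strong losses. Loss and gain were thus both frequent in these 2 steps. The step from 60 to 70 Mb on chromosome 13 had 0 strong gains. Counting all regions, it gained 16 of 124 held at 24 h (12.9%), beside 8.38% over the chromosome. From 60 to 70 Mb on chromosome 4, the step with its highest share of strong losses, 27 of 151 were gained (17.9%).

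At the scale of 1 Mb, loss was spread over nearly the whole of each chromosome. The 3 chromosomes were covered by 364 windows with a region held at 0 h. At 24 h, 349 of these had at least 1 loss and 272 at least 1 gain, beside 2423 and 1959 of 2524 windows on the other chromosomes. More regions were lost than gained in 282 windows (77.5%), fewer in 40 (10.99%) and as many in 42, and on the other chromosomes 76.0% of windows had more losses and 11.9% more gains. The 37 windows with the most losses held 22.6% of all losses, while the 37 with the most 0 h regions held 21.0% of those. By count, losses were therefore hardly more concentrated than the regions themselves. Counts follow the density of a window, so this does not show how evenly the share lost was spread. Among 339 windows with at least 10 regions at 0 h, the median window lost 15.9% and the highest 66.7%, and 66 lost 25% or more. Elsewhere the median window lost 12.7%, and 296 of 2392 lost 25% or more.

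**Figure D3:**
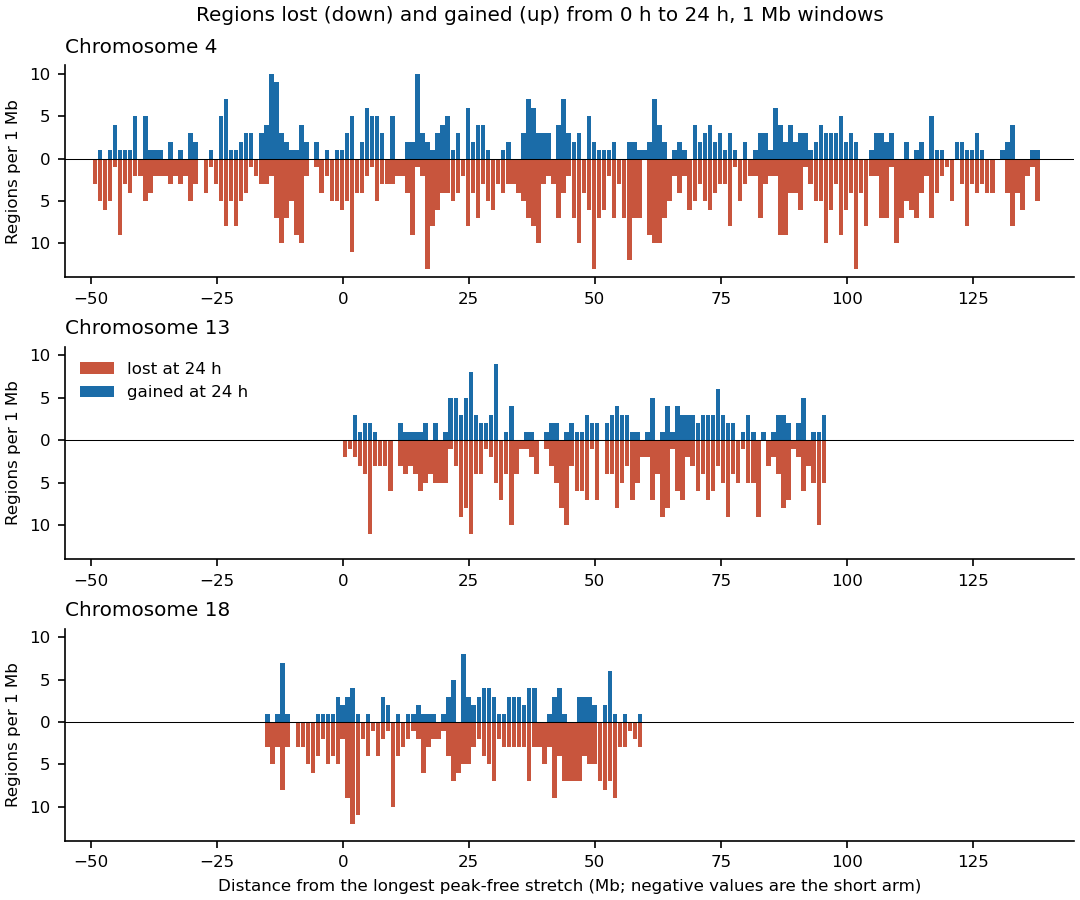
Number of regions lost (red, down) and gained (blue, up) from 0 h to 24 h in each 1 Mb window of chromosomes 4, 13 and 18, against the distance in Mb from the longest peak-free stretch. Losses are present in 349 of 364 windows, and the longest bars reach 13 lost and 10 gained on chromosome 4.

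By count, the windows of chromosome 4 with the most losses began at 69, 102 and 154 Mb, with 13 lost of 37, 62 and 54 held at 0 h. By share, the window at 162 Mb lost 10 of 15 regions (66.7%) at 24 h with 0 gained, and 8 at 1 h, and the window at 115 Mb lost 10 of 20. Gains were most frequent in the windows at 35 and 67 Mb, with 10 each beside 2 and 1 losses. On chromosome 13, the windows at 24, 44 and 52 Mb lost 11 of 56, 11 of 50 and 10 of 64, and the window at 44 Mb also gained 8. The neighbouring windows at 82 and 83 Mb had the highest shares, 9 of 16 (56.3%) and 8 of 15 (53.3%). They lost 4 of 6 and 3 of 5 strong regions. The most gains, 9, fell in the window at 49 Mb. On chromosome 18, the windows at 20, 21 and 28 Mb lost 12 of 49, 11 of 62 and 10 of 34, and those at 62 and 69 Mb had the highest shares, 7 of 17 (41.2%) and 7 of 18 (38.9%). Gains led at 42 and 3 Mb, with 8 and 7.

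Some of these windows cross gene clusters that are known in prostate and epithelial biology. Their place is given from general knowledge and was not read from an annotation of hg19. The UGT2B cluster, whose enzymes attach glucuronic acid to androgens and other steroids, falls in the windows of chromosome 4 at 69 and 70 Mb. The first of them lost 11 of 37 regions at 1 h and 13 at 24 h, and 5 and 6 of 22 strong ones. The window at 70 Mb lost 5 of 27 at 1 h and 8 at 24 h, with 1 and 3 of 15 strong ones. At 69 Mb the count at 1 h was already close to that at 24 h. The desmosomal cadherins, which hold epithelial cells together, are encoded in a cluster that falls in the windows of chromosome 18 at 28 and 29 Mb. These adjoining windows differed: 10 of 34 regions were lost at 24 h in the first, with 0 gained, and 4 of 47 in the second, with 1 gained. In the window at 28 Mb the 10 lost regions had a median fold percentile of 27.8 at 0 h and the 19 kept ones 89.98.

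Neighbouring regions were sometimes lost together. A run was counted as consecutive regions held at 0 h that were all lost at 24 h. The longest had 7 regions, at chr4:115021644-115247992 (226 kb), of which 3 were strong and 2 were also lost at 1 h, and a second run of 7 lay at chr4:162003436-162277855 (274 kb), with 2 strong and 5 lost at 1 h. On chromosome 13, 5 consecutive regions lay within 36.4 kb at chr13:83010154-83046517, 3 of them strong. On chromosome 18, the longest run had 4 regions in 53.1 kb, at chr18:65369138-65422282. Runs of at least 2 held 573 of the 1632 lost regions (35.1%), beside 29.4% on the other chromosomes, where a smaller share was lost to begin with. Lost and kept regions were about equally far from their nearest neighbour, at medians of 9.66 and 9.51 kb.

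Lost regions were weaker and narrower than kept ones. In the 2 libraries of 0 h, regions lost at 24 h had a median width of 280 and 209 bp and a median fold percentile of 38.5 and 37.4. Kept regions had medians of 482 and 382 bp and of 66.3 and 67.8. Regions gained at 24 h were likewise narrow and weak, with 219 and 232 bp and percentiles of 31.2 and 33.9 in the 24 h lists. Strong exceptions were present among the lost: 3.98% and 2.76% lay in the 10% of the list with the highest folds, beside 2.51% and 1.44% of lost regions on the other chromosomes. Of the gained regions, 0.283% and 0.566% did.

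The higher share of losses on the 3 chromosomes was present at every level of strength. Regions held at 0 h were divided into 10 steps by their mean fold percentile. In each of the 10 steps a larger share was lost at 24 h on chromosomes 4, 13 and 18 together than elsewhere, from 31.6% against 27.9% in the weakest step to 19.7% against 15.5% in the fifth and 3.88% against 1.70% in the strongest. The strongest step held 1210 regions, of which 47 were lost at 24 h and 14 at 1 h (1.16% against 0.373% elsewhere). Chromosome 18 taken alone lay below the other chromosomes in steps 1, 2, 3 and 9. Width gave the same order. In 4 classes of 0 h width, divided at 258, 388 and 613.5 bp, 31.4%, 17.6%, 9.07% and 2.04% were lost from narrow to wide, beside 28.98%, 14.4%, 6.83% and 1.17% elsewhere.

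Local density went along with loss. From windows of 10 to 19 regions at 0 h to windows of 50 to 99, the share of strong regions lost became smaller at each of 4 classes, on the 3 chromosomes together and on the others. The sparsest windows, of 1 to 9 regions, did not continue this: the 3 chromosomes lost 7 of 75 strong regions there (9.33%) and the others 8.40%, and of all regions 17.6% and 19.9%. In windows of 10 to 19 regions the 3 chromosomes lost 10.9% of strong regions at 24 h and the others 7.50%, and in windows of 50 to 99 regions 3.01% and 2.34%. In windows of 20 to 29 the values were 8.42% and 6.41%, and in those of 30 to 49 they were 4.77% and 3.98%. Sparse windows were more common here: those of 10 to 19 held 16.2% of the 0 h regions of the 3 chromosomes and 7.09% of those elsewhere. The 3 chromosomes were above the others in each of these 4 classes, by less in the dense ones. By chromosome, windows of 20 to 29 regions lost 12.2% on chromosome 13, 8.57% on chromosome 4 and 3.88% on chromosome 18, the last below the other chromosomes. Windows are not replicates and share the same 6 libraries, so these shares are descriptions.

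**Figure D4:**
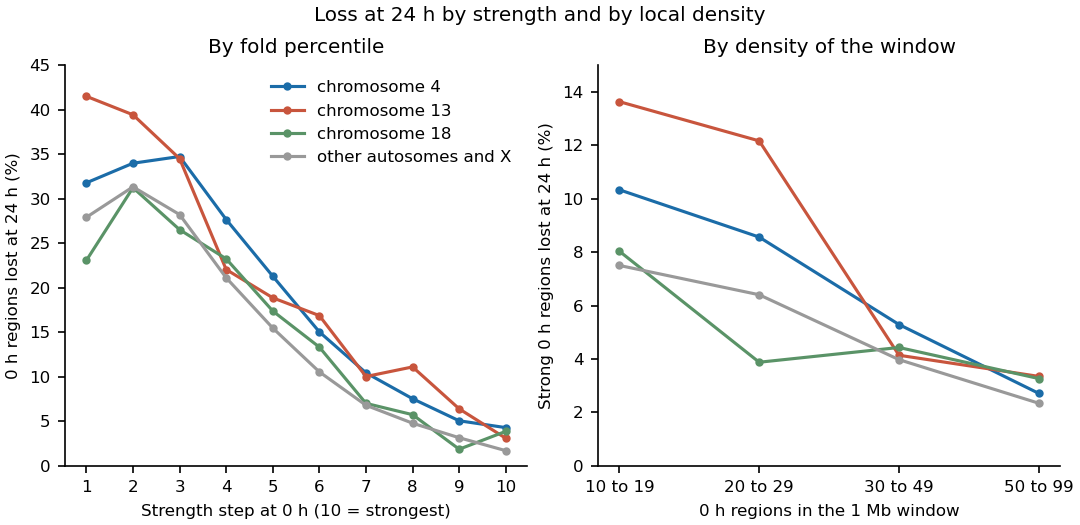
Left, percent of 0 h regions lost at 24 h in 10 steps of 0 h fold percentile (10 is the strongest) on chromosomes 4, 13 and 18 and on the other autosomes and X. Right, percent of strong 0 h regions lost at 24 h in 1 Mb windows grouped by their number of 0 h regions, with the same lines. The share goes from 7.50% to 2.34% on the other autosomes and X. Chromosome 18 does not fall at each class, with 8.04%, 3.88%, 4.43% and 3.27%. The 3 chromosomes together, not drawn, go from 10.9% to 3.01%.

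Many of the losses at 24 h were present at 1 h. Of the 1632 regions lost at 24 h, 781 already had no peak in either 1 h library (47.9%), 453 had one in 1 library and 398 in both. Of the 307 strong ones, 124 had none at 1 h (40.4%), 89 had one in 1 library and 94 in both (30.6%). On the other chromosomes 33.6% of strong losses had no peak at 1 h and 41.9% had one in both libraries. The 3 chromosomes were alike in the first share, with 40.4% on chromosome 4, 40.9% on 13 and 39.6% on 18. Of strong regions lost at 1 h, 124 of 133 were still without a peak at 24 h (93.2%, genome-wide 92.4%), 7 had one in 1 library and 2 in both. Of all 974 lost at 1 h, 781 had none at 24 h (80.2%, genome-wide 79.3%). Gains were in part listed at 1 h as well. Of all 707 regions gained at 24 h, 171 had a peak in both 1 h libraries (24.2%, genome-wide 26.7%). Another 250 had one in 1 library and 286 in none (40.5%, genome-wide 39.4%). Of the 48 strong regions gained at 24 h, 28 had a peak in both 1 h libraries (58.3%, genome-wide 60.3%), 10 in 1 and 10 in none. Strong gains with a peak in 1 of the 1 h libraries made up 20.8% (genome-wide 24.8%), and those with none 20.8% (genome-wide 14.9%).

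The strongest regions lost at 24 h were near the top of the 0 h lists and ranked lower or were absent at 1 h. They were picked by their 0 h strength, so their values are a description, and folds are the authors' values, to be read within a list. On chromosome 4, chr4:29277801-29278247 had folds of 24.1 and 21.2 at 0 h, no peak and 4.62 at 1 h, and no peak at 24 h. On the same short arm, chr4:44569799-44570281 had 17.2 and 17.8 at 0 h, then 5.42 and no peak at 1 h. In the 1 h libraries each of these regions was thus listed once and missed once. On chromosome 13, chr13:85947403-85947835 had folds of 20.03 and 18.8 at 0 h, then 5.83 and 5.46 at 1 h. The region chr13:83010154-83010840, the first of the run of 5, had 19.9 and 16.8 at 0 h, then 5.83 and 7.99 at 1 h. Both had a peak at 1 h, the first at percentiles 47.5 and 42.1 and the second at 47.5 and 68.0, and none at 24 h. On chromosome 18, chr18:70856833-70857619 had 19.1 and 20.7 at 0 h, then 6.25 and 4.20 at 1 h, and chr18:71374227-71374729, on the same arm, had 17.9 and 18.1 at 0 h and none later. Within their 0 h lists these 6 regions ranked at percentile 97.7 or higher.

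Among regions lost already at 1 h, chr18:71374227-71374729 was also the strongest on its chromosome. On chromosome 4 it was chr4:69885897-69886441, in a window of the UGT2B cluster, with folds of 15.04 and 16.6 at 0 h and no peak in any later library. On chromosome 13 it was chr13:97577991-97578559, with 16.9 and 16.4 at 0 h and none later. None of the 3 was listed again at 24 h.

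The strongest gained regions were weaker than the strongest lost ones within their lists, and both 1 h libraries already listed each of them. On chromosome 4, chr4:96664102-96664564 had no peak at 0 h, folds of 5.83 and 8.41 at 1 h, then 11.3 and 12.7 at 24 h. Its neighbour in rank, chr4:110217756-110218151, had 6.09 and 6.96 at 1 h, then 11.6 and 12.2 at 24 h. Both ranked between percentiles 84.9 and 91.3 at 24 h. On chromosome 13, chr13:106216544-106216894 had 4.58 and 5.04 at 1 h, then 13.5 and 11.2 at 24 h, and chr13:88576020-88576340 had 9.58 and 10.1 at 1 h, then 12.0 and 11.7 at 24 h. The latter was high at 1 h and also the strongest gain of that time on its chromosome. On chromosome 18, chr18:40639958-40640362 had 8.33 and 8.41 at 1 h, then 11.7 and 9.20 at 24 h, and chr18:42754755-42755111 had 5.36 and 5.85 at 1 h, then 9.04 and 7.28 at 24 h. The strongest gain at 1 h on chromosome 4 was chr4:57529197-57529686, with 7.50 and 7.15 at 1 h, then 10.6 and 10.2 at 24 h.

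**Figure D5:**
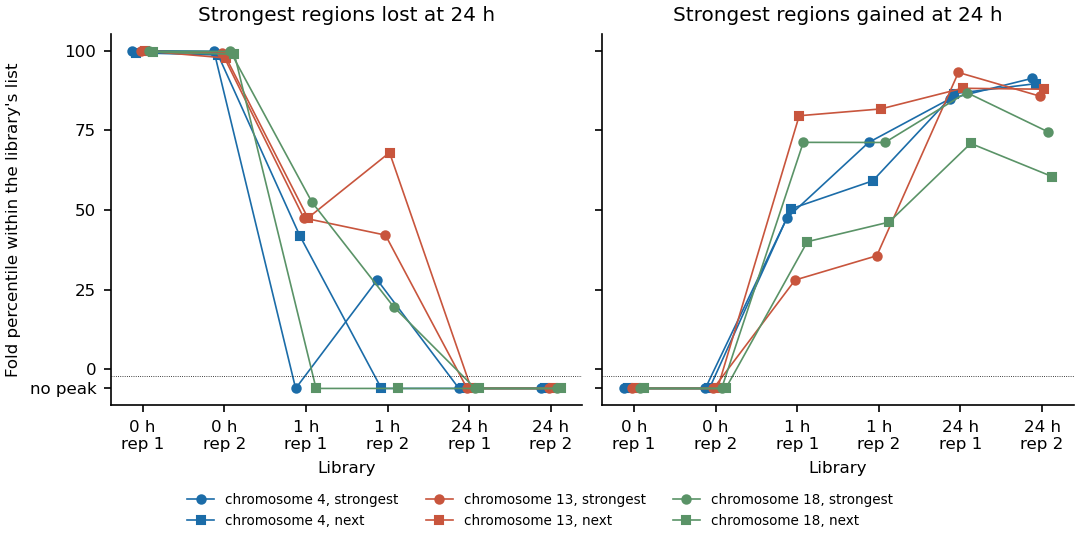
Fold percentile within each library's own list for the 2 strongest regions lost (left) and gained (right) at 24 h on each of chromosomes 4, 13 and 18; points on the lowest line had no peak. Lost regions start at percentile 97.7 or higher at 0 h, and the gained ones reach between 60.4 and 93.1 at 24 h.

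Regions that were open throughout also changed their place. On the 3 chromosomes, 6950 regions had a peak in all 6 libraries, of 72695 genome-wide. Their folds were ranked from 0 to 100 within this common set, and a region was called lower or higher when the 2 libraries of each time did not overlap and the means differed by at least 10 points. At 1 h, 1049 were lower and 1096 higher, which is 15.1% and 15.8%, beside 13.8% and 14.2% genome-wide. At 24 h, 1344 were lower and 1357 higher, 19.3% and 19.5%, beside 16.8% and 17.7%. Rank changes within a set must balance in sum over the genome, though the counts called need not. A net shift could thus show only between chromosomes, and on these 3 the split was nearly even. On chromosome 13, 377 were lower and 336 higher at 24 h, on chromosome 4, 672 and 704, and on chromosome 18, 295 and 317. The median change at 24 h was −0.133 points on chromosome 13, 0.335 on chromosome 4 and 0.717 on chromosome 18. The middle 50% of changes ran from −9.90 to 9.75 on the 3 chromosomes and from −8.01 to 8.33 elsewhere, a wider spread here. The spread between replicates was not set beside it.

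The regions with the largest shifts among the shared ones were singled out after their values were seen. On chromosome 4, chr4:89332592-89333271 had percentiles of 98.5 and 95.9 at 0 h, 36.5 and 38.7 at 1 h, then 6.89 and 2.04 at 24 h. On chromosome 18, chr18:69349706-69350683 had 99.7 and 98.6 at 0 h, 65.0 and 43.8 at 1 h, then 3.46 and 9.29 at 24 h. It lies in the window at 69 Mb, which lost 7 of 18 regions. On chromosome 13, chr13:34698868-34699561 had 97.2 and 92.7 at 0 h, 32.2 and 41.0 at 1 h, then 6.89 and 20.5 at 24 h. These 3 regions kept a peak in all lists but went from near the top of the set to its lower end, with 1 h in between. In the other direction, chr4:45033105-45033590 had 14.1 and 4.22 at 0 h, 81.7 and 85.7 at 1 h, then 95.0 and 91.2 at 24 h. The region chr13:54707951-54708599 had 6.75 and 0.497 at 0 h, 82.1 and 68.1 at 1 h, then 76.4 and 82.7 at 24 h. On chromosome 18, chr18:53246732-53247250 had 22.95 and 8.001 at 0 h, 51.8 and 66.5 at 1 h, then 90.1 and 87.6 at 24 h. Groups of 0 h and 24 h libraries did not overlap in any of the 6, which their choice fixes.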

How the data were processed

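One list of ATAC-seq peaks per library was used, as deposited. The submitters' processing notes name MACS2, Bowtie2, fastp and FastQC with hg19; versions, read shifting and duplicate removal are not given in the sources used here. Each peak carries the authors' fold (a ratio of summit pileup to local background) and their −log10 p and −log10 q, and a deposited score (the −log10 q times 10, as a whole number). A whole-number pileup was recovered from the fold and −log10 p, assuming MACS2's usual formulas. It came within a tolerance of 0.001 of the deposited −log10 p for 99.96% to 100.0% of peaks. The most frequent background pileup of a list, divided by the width of its shortest peak, gave the relative depth. No read counts were used, and counting intervals were not made. Peaks on 22 autosomes and X were merged at 1 bp overlap with numpy 2.4.6 and pandas 2.3.3, and placed in windows by their middle. Library values were compared by exact two-sided permutation tests (9, Benjamini-Hochberg adjusted). Counts of lost, gained and shared regions have no test and are given beside the same count genome-wide.

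Named regions are, per chromosome, the 2 strongest lost and gained at 24 h and the single strongest at 1 h. Named windows are the 3 with the most losses, the 2 with the most gains and the 2 with the highest share lost among those with at least 10 regions at 0 h, besides the windows of the cadherin and UGT2B clusters and the longest runs. The chromosomes and these rules were chosen with earlier results of these data known. The 10 Mb steps, strength and width steps, density classes, shares of strong peaks, single library pairs and the omission of 1 window were added later. Alternatives were strong peaks only, a −log10 q minimum of 5, lists of one length, 500 bp summit windows, peaks covering 50% of a region, a shift of 20 points, other windows, each library left out and a replicate block. No hg19 sequence or annotation was used, so no sequence and no gene at a region is given. Replicate numbers are shared between times, but the labels do not say what they stand for, so libraries were not paired.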

Additional observations from a re-analysis of the deposited data

How the results depend on the processing

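No difference in library values could pass 0.05 by the exact permutation test, whose smallest p is 0.333. A replicate block cannot change a difference of means in this balanced design and says nothing of stability: it gave −0.168 points for the share of peaks at 1 h (exact paired sign-flip p = 0.5, the smallest possible). Replicate numbers did not mark shared deviations: over 72695 shared regions, deviations of same-numbered libraries correlated at 0.0146 to 0.0423, given as a description. Leaving out 1 library at a time, the difference in the share of peaks ran from −0.188 to −0.148 for 1 h against 0 h, from −0.314 to 0.0654 for 24 h against 0 h and from −0.146 to 0.234 for 24 h against 1 h. For strong peaks, 24 h against 1 h ran from −0.0845 to 0.0592. The fold percentile ran from −1.48 to 0.645 for 24 h against 0 h, with the highest value without 24 h replicate 2, and from −0.883 to 1.24 for 24 h against 1 h. The last was also −0.101 with a −log10 q of at least 5 and −0.694 in lists of one length, against 0.179. The width ratio ran from −0.00321 to 0.00771 for 1 h against 0 h. The causes were not tested.

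Counts rise when a library is left out, by construction: fewer libraries have to hold or lack a peak. Losses then ran from 1412 to 2170 at 1 h, from 2024 to 2950 at 24 h and from 1006 to 1800 for 24 h against 1 h, and gains from 805 to 1373, from 1066 to 2021 and from 692 to 1678. Strong losses ran from 183 to 254 at 1 h and from 361 to 524 at 24 h, and strong gains from 9 to 30 and from 82 to 123. Shared regions ran from 1402 to 1601 lower and 1347 to 1783 higher at 1 h. Requiring strong peaks against no peak gave 133 lost and 4 gained at 1 h, 307 and 48 at 24 h, and 4 and 13 for 24 h against 1 h. Requiring peaks to cover 50% of a region gave 813 gained at 1 h and 1242 lost for 24 h against 1 h. A shift of 20 points gave 604 lower and 523 higher regions at 1 h. At 24 h it gave 827 and 830. In windows of 5 Mb, 94.7% had more losses than gains.

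The share lost at 24 h on the 3 chromosomes was above that elsewhere in each setting with merged or summit regions: 17.4% against 13.7% with a −log10 q of at least 5, 13.7% against 10.3% in lists of one length, 15.97% against 12.7% in 500 bp summit windows, and 24.6% against 19.1% with 50% cover. Absence from a list means only that the q threshold of 0.05 was not met, and the 24 h libraries were the shallowest by the relative depth used here. At 24 h, depth and time cannot be told apart.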
